A study of Cricetulus griseus with 16 samples.

Results

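The 10 genes described here make up a small set for glutathione and for the defence against oxidants: Gclc, Gclm, Gss, Gsr, Txnrd1, Srxn1, Prdx1, Nqo1, Hmox1 and Osgin1. They were taken by gene name, case ignored, from the table of read counts, which lists 20824 genes, and all 10 were found and none was absent. The rule itself used no expression value. RNA was sequenced from CHO cells, an established line derived from Chinese hamster ovary (ATCC CCL-61), in 16 libraries. There were 4 cultures in each of 4 groups, lettered A to D: untreated cells kept at 37 °C, cells heated at 40 °C for 1 h, cells left at 40 °C for 6 h, and cells heated at 42.5 °C for 1 h. All cultures were of the same line and were plated a day earlier in medium with serum, penicillin and streptomycin. No other drug and no genetic change is named for any group. The labels give no time for the 37 °C group, and no 37 °C group matched to 6 h is among the libraries. Differences after 6 h of heat thus cannot be told apart from those of time in culture. The treatments stand for mild, fever-like heat and for a stronger heat shock, and the question is which of them moved the redox genes. The study calls the cultures biological repeats, and nothing else says how independent they were. The p-values here set differences between groups against the spread between these cultures, taken as independent. They would be too small if the cultures were not.

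Glutathione is a small peptide that cells keep mostly reduced and spend on peroxides, electrophiles and damaged thiols. Glutamate-cysteine ligase and glutathione synthetase build it, glutathione reductase recycles it with NADPH, and a parallel system of thioredoxin reductase, thioredoxin and peroxiredoxins removes peroxides. Many of these genes share the transcription factor NRF2 (Nfe2l2), which KEAP1 holds back and marks for breakdown in unstressed cells, and which binds antioxidant response elements together with small MAF proteins. Heat shock factors are a separate arm of the stress response. In bulk RNA such as this, fewer cells that express a gene and less RNA of it per cell cannot be told apart.

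Library totals lay between 10504192 and 14668365 counts, and the 10 genes held 0.198 to 0.261% of them. The least counted of the 10, Osgin1, had 64 counts or more in every library, and all 10 passed the filter on low counts in every comparison. Expression is given as CPM (counts scaled to library size, with TMM factors), so that a floor of 3 counts stands for 0.205 to 0.292 CPM. The study left out 1 control library for differing from its group, without naming it. The counts it lists match 37 °C replicates A, B and C and not D, so replicate D was taken to be that library and fits here use the other 3. Replicate D was above the other 3 controls for 7 of the 10 genes and below them for 2, where 43% of 10579 genes were above and 40.6% below. Vim, Fn1, Lgals1 and S100a6 were at 212 CPM or more in every library, whereas the mesenchymal markers Cdh2 and Col1a1 had at most 8 counts. Of the granulosa markers, Foxl2, Fshr and Cyp19a1 had 0 counts and Amh had 24 to 90. Epcam, Ptprc, Pecam1 and Cdh5 had 0 to 4 counts, and Cdh1 had 20 to 48. Counts of St6gal1 and Mgat3, genes known to be silent in CHO, were 0 to 2. The share of counts from 13 mitochondrially encoded genes was 2.23 to 3.06% in the 3 controls and 3.55 to 3.8% at 42.5 °C, and whether it bears on the values below was not tested.

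**Figure D1:**
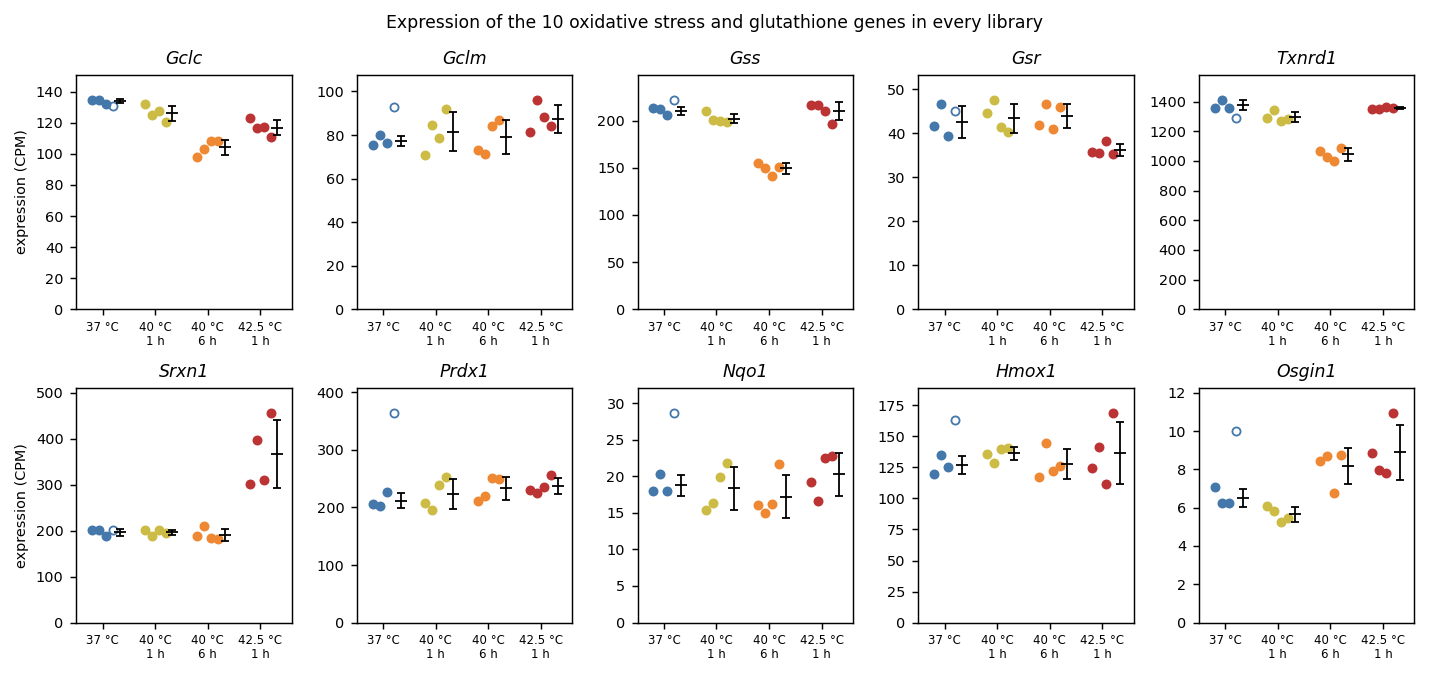
Expression in CPM (linear axes from 0) of each of the 10 genes in every library by group, with filled circles for the 15 libraries used, an open circle for 37 °C replicate D and bars for mean ± SD. Srxn1 was at 301 to 456 CPM at 42.5 °C and at 181 to 209.5 CPM in the other filled libraries, and Gss, Txnrd1 and Gclc were lowest after 6 h at 40 °C.

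Gclc encodes the catalytic subunit of glutamate-cysteine ligase, which carries out the first step of glutathione synthesis. It was at 135, 135 and 132 CPM in 37 °C replicates A, B and C, and at 132, 125, 127 and 120.3 CPM in the 4 cultures held at 40 °C for 1 h. After 6 h at 40 °C it was at 97.8, 103, 108 and 108 CPM, and at 42.5 °C at 122.8, 117, 117 and 111 CPM. All 12 heated libraries lay below the 3 controls, and the 6 h libraries lay below all others. Gclc fell after 6 h at 40 °C, by 0.36 in log2 terms (SE 0.05, adjusted p = 5.91e-05), a change of -22.1%. It fell less at 42.5 °C, by 0.19 (SE 0.043, adjusted p = 0.00282), and at 40 °C for 1 h the log2 difference was -0.09 (adjusted p = 0.374). The order from low to high was 40 °C 6 h, 42.5 °C, 40 °C 1 h and 37 °C. Within it, 42.5 °C against 40 °C 1 h had an adjusted p of 0.0878 (95% interval -0.19 to -0.01). The comparison of 40 °C 1 h with 37 °C did not pass the test either.

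Gclm encodes the modifier subunit of the same ligase, which raises the activity of the catalytic one. Its 3 control values were 75.5, 80.0 and 76.2 CPM, and those at 40 °C for 1 h were 70.6, 84.8, 78.7 and 91.7 CPM. After 6 h it was at 73.0, 71.5, 84.0 and 87.1 CPM, and at 42.5 °C at 81.2, 96.2, 88.3 and 84.2 CPM. The 42.5 °C libraries lay above the 3 controls, while both 40 °C groups lay on either side of them. Gclm rose at 42.5 °C by 0.19 in log2 terms (SE 0.058, adjusted p = 0.0148). No neighbours in its order (37 °C, then 6 h and 1 h at 40 °C, then 42.5 °C) had an adjusted p under 0.05. The catalytic and the modifier subunit had opposite signs at 42.5 °C. Means were 117 ± 4.87 CPM for Gclc and 87.5 ± 6.52 CPM for Gclm (SD, n = 4), beside 134 and 77.25 CPM in the 3 controls. With all 4 controls the signs stayed but neither passed: -0.165 for Gclc (adjusted p = 0.0638) and 0.136 for Gclm (adjusted p = 0.26).

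Gss encodes glutathione synthetase, the enzyme of the last step of glutathione synthesis. At 37 °C it was at 213, 212 and 206 CPM, and at 40 °C for 1 h at 209.8, 201, 199 and 199 CPM. After 6 h at 40 °C it was at 156, 149.8, 142 and 151 CPM, and at 42.5 °C at 217, 217, 210.4 and 197 CPM. The 6 h libraries stood apart from all 11 others, with a gap between 156 and 197 CPM. Gss fell after 6 h by 0.49 in log2 terms (SE 0.047, adjusted p = 2.19e-06), a change of -28.8% and the largest change among the 10 genes at 40 °C. The difference was -0.05 at 40 °C for 1 h and 0.01 at 42.5 °C. No pair among the 37 °C, 40 °C 1 h and 42.5 °C groups had an adjusted p under 0.05. In the RefSeq annotation of another Chinese hamster assembly, 2 other loci overlap Gss, and the strand setting of the counting is not given in the sources used here, so reads of these could be counted with it.

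Gsr encodes glutathione reductase, which returns oxidised glutathione to its reduced form. It was at 41.7, 46.6 and 39.5 CPM in the controls and at 35.7, 35.6, 38.2 and 35.3 CPM at 42.5 °C. After 1 h at 40 °C it was at 44.6, 47.7, 41.4 and 40.4 CPM, and after 6 h at 42.0, 46.6, 41.1 and 46.0 CPM. The 42.5 °C libraries lay below all 11 others, and the remaining groups overlapped. Gsr fell at 42.5 °C by 0.22 in log2 terms (SE 0.067, adjusted p = 0.0127), and after 1 h and 6 h at 40 °C its differences were 0.03 and 0.04. Ubxn8 overlaps Gsr in the RefSeq annotation, with the same limit on strand.

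Txnrd1 encodes the cytosolic thioredoxin reductase, a selenoprotein that keeps thioredoxin reduced. It was at 1354, 1413 and 1357 CPM in the controls, and at 1290, 1344, 1270 and 1284 CPM after 1 h at 40 °C. After 6 h at 40 °C it was at 1069, 1024, 996 and 1089 CPM, and at 42.5 °C at 1347, 1352, 1366 and 1355 CPM. As with Gss, the 6 h libraries lay below all others, and the 42.5 °C libraries were spread over only 0.601% of their mean (CV). Txnrd1 fell after 6 h by 0.39 in log2 terms (SE 0.047, adjusted p = 1.7e-05), a change of -23.9%. At 42.5 °C the difference was -0.01 (95% interval -0.08 to 0.07). At 40 °C for 1 h it was -0.08 (adjusted p = 0.361), although all 4 libraries of that group lay below the 3 controls used. Eid3 and another locus overlap Txnrd1 in the RefSeq annotation.

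Srxn1 encodes sulfiredoxin, which restores peroxiredoxins whose active cysteine has been over-oxidised. It was at 201, 202 and 187 CPM in the controls, at 201, 189, 201 and 195 CPM after 1 h at 40 °C, and at 188, 209.5, 183 and 181 CPM after 6 h. At 42.5 °C it was at 301, 397.5, 310.1 and 456 CPM in replicates A, B, C and D. Every 42.5 °C library lay above all others, and within the group replicates B and D stood above A and C. Srxn1 rose 1.88-fold at 42.5 °C (95% interval 1.61 to 2.2), a log2 difference of 0.91 (SE 0.11, adjusted p = 8.2e-06) between means of 366 ± 73.9 CPM (SD, n = 4) and 197 ± 7.89 CPM (SD, n = 3). Without 42.5 °C replicate D, its highest library, the log2 difference was 0.79. The other 3 groups, with means between 190.4 and 197 CPM, did not differ beyond their spread, and the 95% interval at 40 °C for 1 h was -0.09 to 0.09 on the log2 scale.

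Prdx1 encodes a cytosolic peroxiredoxin, the kind of enzyme that sulfiredoxin repairs. The controls were at 206, 202 and 227 CPM, and the cultures held at 40 °C for 1 h at 209, 196, 239 and 252 CPM. After 6 h it was at 211, 219.9, 251 and 249.7 CPM, and at 42.5 °C at 229.7, 225, 235 and 257 CPM. All groups overlapped, and no neighbours in the order (37 °C, then 1 h and 6 h at 40 °C, then 42.5 °C) had an adjusted p under 0.05. Prdx1 rose at 42.5 °C by 0.18 in log2 terms (SE 0.052, adjusted p = 0.0121), with 3 of 4 libraries above the 3 controls. This rise rested on which controls were used: 37 °C replicate D was at 364 CPM, and with all 4 controls the log2 difference was -0.05 (adjusted p = 0.877).

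Nqo1 encodes a quinone reductase and Hmox1 the inducible haem oxygenase, and both are widely used as readouts of NRF2. Nqo1 was at 17.9, 20.4 and 17.98 CPM in the controls, at 15.3, 16.4, 19.9 and 21.8 CPM after 1 h at 40 °C, at 16.1, 14.99, 16.2 and 21.7 CPM after 6 h, and at 19.2, 16.6, 22.5 and 22.8 CPM at 42.5 °C. Hmox1 was at 120.1, 135 and 125 CPM in the controls, at 136, 129, 139.7 and 141 CPM after 1 h at 40 °C, at 117, 145, 122 and 126 CPM after 6 h, and at 125, 142, 112 and 169 CPM at 42.5 °C. All groups of both genes overlapped. With all libraries used and the replicate letter left out of the model, neither gene passed the test in any of the 6 comparisons, those between neighbours in their orders included. At 42.5 °C the log2 difference from 37 °C was 0.13 for Nqo1 (95% interval -0.1 to 0.35, adjusted p = 0.347). For Hmox1 it was also 0.13 (95% interval -0.08 to 0.33, adjusted p = 0.31), and it was 0.01 without 42.5 °C replicate D, the library with the highest value. Single libraries or the replicate letter decided other calls of these genes. Nqo1 at 42.5 °C against 40 °C for 6 h differed by 0.24 (adjusted p = 0.102), and passed without 40 °C 6 h replicate D (0.37, adjusted p = 0.0116) or without 42.5 °C replicate B (0.33, adjusted p = 0.0389). It also passed with the replicate letter in the model (0.24, adjusted p = 0.0356). Hmox1 after 6 h against 1 h at 40 °C differed by -0.09 (adjusted p = 0.296), and passed without 6 h replicate B (-0.16, adjusted p = 0.0478). Hmox1 after 1 h at 40 °C had 3 of 4 libraries above the 3 controls used and a log2 difference of 0.11 (adjusted p = 0.337).

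Osgin1, named for its induction by oxidative stress and its effect on growth, had the fewest counts of the 10 genes. It was at 7.06, 6.23 and 6.22 CPM in the controls and at 6.09, 5.85, 5.23 and 5.44 CPM after 1 h at 40 °C. After 6 h it was at 8.46, 8.73, 6.78 and 8.75 CPM, and at 42.5 °C at 8.84, 7.99, 7.81 and 10.9 CPM. The 1 h libraries at 40 °C lay below all others. The 42.5 °C libraries lay above the 3 controls used, while 1 library of the 6 h group, replicate C, lay within them. The control left out, 37 °C replicate D, was at 10.03 CPM. Osgin1 rose at 42.5 °C by 0.47 in log2 terms (SE 0.14, adjusted p = 0.0111), which is 1.39-fold, and the difference was 0.35 without 42.5 °C replicate D. With all 4 controls it was 0.308 and did not pass (adjusted p = 0.2485). After 6 h at 40 °C the difference was 0.33 (adjusted p = 0.0651), and it was 0.41 (adjusted p = 0.029) without 6 h replicate C. In the order 40 °C 1 h, 37 °C, 40 °C 6 h and 42.5 °C no neighbours had an adjusted p under 0.05. The 95% interval of 40 °C 6 h against 37 °C was 0.06 to 0.6 on the log2 scale.

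Set together, none of the 10 genes passed the test after 1 h at 40 °C when the replicate letter was left out of the model. With the letter in the model Txnrd1 passed (log2 -0.08, adjusted p = 0.0457). By edgeR's quasi-likelihood test, 0 of 10 were differentially expressed genes (DEGs, adjusted p under 0.05 and at least a 1.5-fold change), where 0.334% of 10494 tested genes were, and 0 of 10 had an adjusted p under 0.05 of any size of change, where 1.64% did. An unadjusted p under 0.05 was found for 0 of 10, where 14.8% of all genes had one, and DESeq2 also gave 0 of 10. Log2 differences ran from -0.2 (Osgin1) to 0.11 (Hmox1), with a median of -0.02 beside 0.00036 over all genes. For all 10 genes the 95% interval of the change lay within 1.5-fold in both directions, as it did for 91.2% of genes tested.

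After 6 h at 40 °C 2 enzymes of glutathione synthesis and thioredoxin reductase were lower, each by less than 1.5-fold. The 37 °C group was not labelled as matched to 6 h. With adjusted p under 0.05, 3 of 10 genes changed, close to the share among all genes (29.4% of 10499 tested). Gss, Txnrd1 and Gclc fell, where 14.8% of genes fell, and 0 of 10 rose, where 14.7% did. By edgeR and by DESeq2 0 of 10 were DEGs, where 3.11% of genes were, since no change reached 1.5-fold, and 5 of 10 had an unadjusted p under 0.05, where 41% of all genes did. In all 3 genes the 4 heated libraries lay below the 3 controls, an arrangement that 18.4% of genes showed. Prdx1 (0.14, adjusted p = 0.0952) passed without 37 °C replicate C (adjusted p = 0.0447) or without 6 h replicate A (adjusted p = 0.025). The share of all counts held by the 10 genes was 0.198 to 0.209% in this group and 0.24 to 0.252% in the 3 controls. Most of that share is Txnrd1, whose mean went from 1375 to 1045 CPM, and 5 of the 10 genes had log2 differences above 0.

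At 42.5 °C sulfiredoxin rose and other members moved by smaller amounts in both directions. Srxn1 was the 1 DEG of 10, where 2.83% of 10470 tested genes were DEGs on the higher side and 7.51% on either, and it was a DEG under all 15 alternative settings. With adjusted p under 0.05 alone, 6 of 10 genes changed, where 43.1% of genes did: Srxn1, Osgin1, Gclm and Prdx1 rose (4 of 10, where 20.8% did) and Gclc and Gsr fell (2 of 10, where 22.3% did). The median log2 difference of the 10 genes was 0.13 beside -0.0017 over all genes. With 37 °C replicate D included, 2 of the 6, Srxn1 and Gsr, still passed. Single controls mattered as well: Gclm had an adjusted p of 0.0652 without 37 °C replicate A, Prdx1 of 0.0574 and 0.073 without A or B, and Gsr of 0.107 without B.

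**Figure D2:**
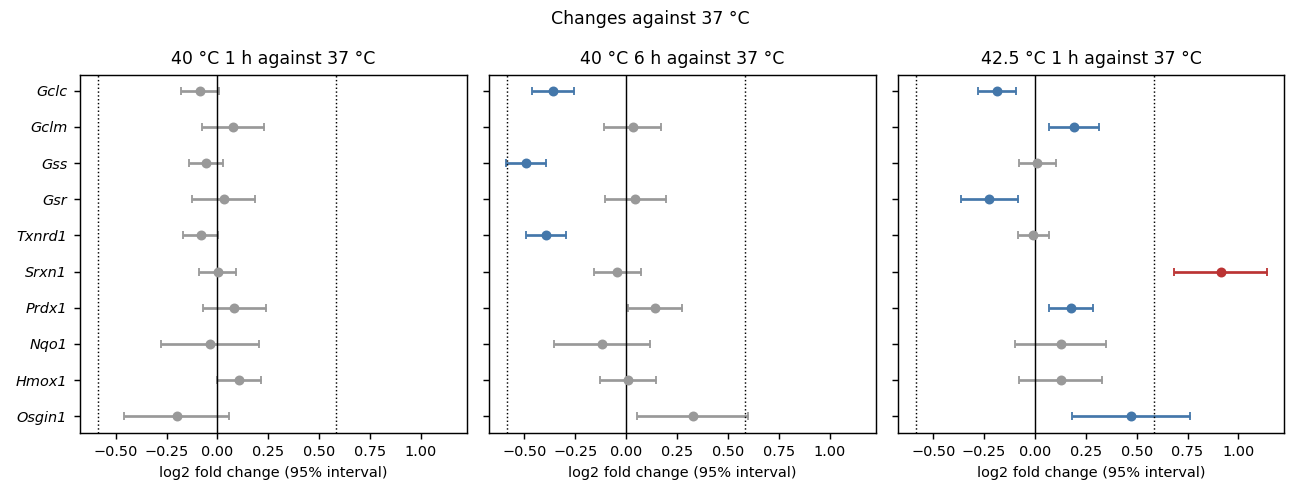
Log2 fold change of each gene against the 3 controls at 37 °C with its 95% interval, for each heat treatment (n = 4), in red for DEGs, in blue for adjusted p under 0.05 with less than 1.5-fold change and in grey otherwise, with dotted lines at 1.5-fold. No gene is coloured after 1 h at 40 °C, Gss, Txnrd1 and Gclc lie to the left after 6 h, and Srxn1 at 0.91 lies beyond the dotted line at 42.5 °C.

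The heated groups were then compared directly, at the same time (1 h) and at the same temperature (40 °C). Raising the temperature of a 1 h treatment from 40 to 42.5 °C raised Srxn1 and Osgin1 and lowered Gsr. Srxn1 differed by a log2 value of 0.91 (SE 0.098, adjusted p = 4.41e-06) and Osgin1 by 0.67 (SE 0.13, adjusted p = 0.00083). These were 2 DEGs of 10, where 5.27% of 10441 genes were, and without 42.5 °C replicate D Osgin1 differed by 0.56 and was no longer a DEG. With adjusted p under 0.05, 3 of 10 genes differed, where 36.1% of genes did. Gsr was lower (-16.2%, log2 -0.25, SE 0.064, adjusted p = 0.00579). Txnrd1 was above all 40 °C 1 h libraries in each 42.5 °C library, but by 0.08 only (adjusted p = 0.103, and 0.0477 by DESeq2's Wald test). Gclc differed by -0.1 (adjusted p = 0.0878), and passed without 40 °C 1 h replicate D (-0.12, adjusted p = 0.0468).

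At 40 °C, Gss, Txnrd1 and Gclc were lower and Osgin1 was higher after 6 h than after 1 h. With adjusted p under 0.05 these were 4 of 10 genes, where 18.5% of 10439 genes passed, and 0 of 10 were DEGs by edgeR or DESeq2, where 1.28% of genes were. Gss differed by -0.43 (adjusted p = 1.47e-05), Txnrd1 by -0.31 (adjusted p = 0.000301) and Gclc by -0.27 (adjusted p = 0.00123). Osgin1 was 1.45-fold higher after 6 h (log2 0.53, SE 0.12, adjusted p = 0.00611), and without 6 h replicate C, the low library of that group, the log2 difference was 0.61, which made it a DEG. The remaining 6 genes differed by -0.09 to 0.06. Longer heat and longer culture cannot be told apart in this comparison.

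Against the 6 h treatment at 40 °C, the 42.5 °C treatment differs in both temperature and time. Here Srxn1 was the 1 DEG of 10, where 8.25% of 10427 genes were (log2 0.95, SE 0.098, adjusted p = 8.44e-07). Gss (0.5, adjusted p = 3.07e-07), Txnrd1 (0.38, adjusted p = 1.16e-06) and Gclc (0.17, adjusted p = 0.00854) were higher at 42.5 °C and Gsr lower (-0.27, adjusted p = 0.00203). Gclm differed by 0.16 (adjusted p = 0.0689), and passed without 40 °C 6 h replicate D (0.21, adjusted p = 0.0228) or without 42.5 °C replicate A (0.19, adjusted p = 0.041). In all, 5 of 10 genes passed adjusted p under 0.05, where 47% of all genes did. Osgin1 was raised in both groups over 40 °C for 1 h and differed between them by 0.14 (95% interval -0.13 to 0.41). The comparisons share groups, so their values are not independent of each other.

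**Figure D3:**
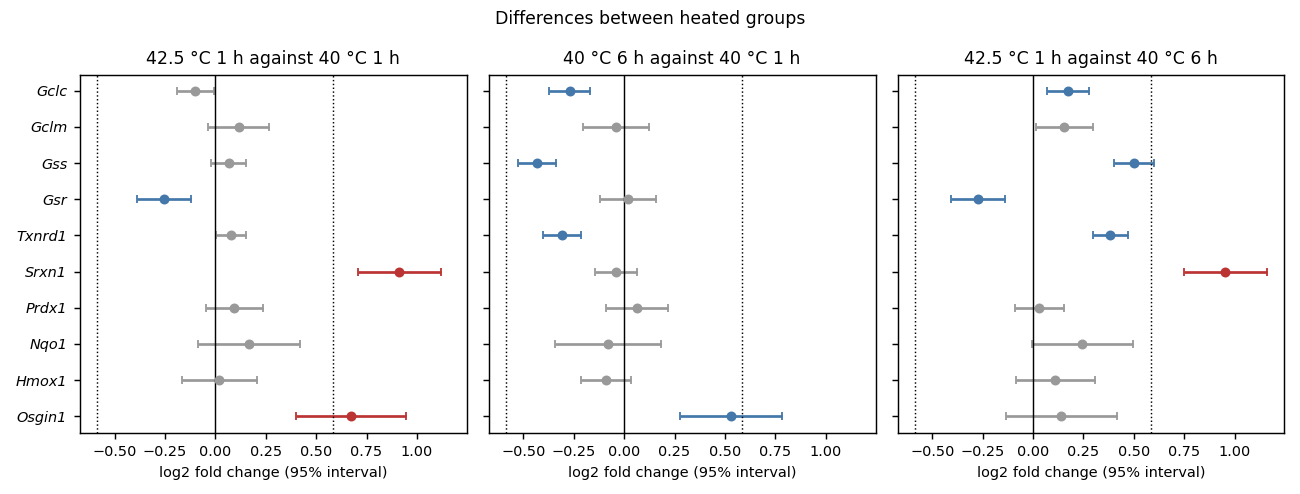
Log2 difference of each gene between heated groups with its 95% interval (n = 4 each), in red for DEGs, blue for adjusted p under 0.05 alone and grey otherwise, with dotted lines at 1.5-fold. Srxn1 lies at 0.91 and 0.95 in both comparisons with 42.5 °C and at -0.04 between 6 h and 1 h at 40 °C, where Gss lies at -0.43 and Osgin1 at 0.53.

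Among the 10 genes, the highest correlation of log2 CPM over the 15 libraries was that of Gss with Txnrd1, with a Pearson's r of 0.972. Gclc had r of 0.805 with Gss and 0.777 with Txnrd1, and Srxn1 had 0.623 with Osgin1. The lowest was that of Gsr with Srxn1 (r = -0.768). The libraries fall into 4 treatment groups, so these values mostly restate the group means and carry no p.

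The rest of the pathway was followed in 6 lists of 122 other genes, of which 109 were found by name. In each comparison 91 were tested, and 90 of the genes were tested in all 6. After 1 h at 40 °C 0 of 91 were DEGs by edgeR, where 0.334% of all genes were. With adjusted p under 0.05, 2 of 91, Sesn2 and Bach1, fell by less than 1.5-fold, where 1.64% of all genes changed. Neither call was firm. Sesn2 lost it without 37 °C A or C or 40 °C 1 h A, C or D (adjusted p from 0.058 to 0.145). Bach1 lost it without 37 °C A or B or 40 °C 1 h A, C or D (adjusted p from 0.0687 to 0.225). With all 4 controls both lost it (adjusted p = 0.188 for Sesn2 and 0.92 for Bach1). Without 37 °C replicate B, in contrast, Sesn2 became a DEG (log2 -0.62, adjusted p = 0.0434). After 6 h 4 were lower and 0 higher, at 42.5 °C 3 were higher and 1 lower, and both times this was 4.4% of the list, beside 3.11% and 7.51% of all genes. The share at 42.5 °C includes Nfe2l3, whose counts passed the filter only where the 42.5 °C libraries, its highest, were compared. The 4 that fell after 6 h came 1 each from the lists for cystine supply, thioredoxin, metals and NRF2 control. Slc7a11, the cystine carrier that feeds glutathione synthesis, went from 5.6 ± 0.498 CPM (SD, n = 3) to 2.75 ± 0.511 CPM (SD, n = 4), a log2 difference of -1.03 (adjusted p = 0.000265) on 28 to 83 counts per library. Sesn2, a stress-inducible sestrin, fell by 0.72 (adjusted p = 0.000345) and Maff, a small MAF partner of NRF2, by 0.74 (adjusted p = 0.000351). Mt1, a metallothionein with 11 to 41 counts in these libraries, fell by 0.82 (adjusted p = 0.0209), and its adjusted p was 0.118 without 37 °C replicate B, 0.0804 without C and 0.0554 by DESeq2. With all 4 controls the adjusted p of Maff was 0.0595.

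Among the other redox DEGs at 42.5 °C were a glutathione-degrading enzyme and a zinc exporter, both higher, and an iron exporter, which was lower. Chac1, which cleaves glutathione, had a mean of 9.31 ± 0.549 CPM in the controls (SD, n = 3) and of 37.2 ± 15.6 CPM at 42.5 °C (SD, n = 4), a log2 difference of 2.03 (SE 0.25, adjusted p = 1.56e-05). Slc30a1, a zinc exporter of the plasma membrane, rose 2.62-fold (adjusted p = 5.64e-06), with means of 25.9 ± 2.73 CPM (SD, n = 3) and 66.6 ± 17.5 CPM (SD, n = 4). Nfe2l3, a relative of NRF2 with 3 to 5 counts in each control library and 13 to 29 in each 42.5 °C library, passed the test as well (adjusted p = 3.97e-05). Its counts passed the filter only where the 42.5 °C libraries, its highest, were compared. It was thus not tested at 40 °C against 37 °C, and its call rests on that selection. Slc40a1, the iron exporter ferroportin, fell by 0.68 (adjusted p = 0.000169). Slc7a11 differed by -0.14 at 42.5 °C (adjusted p = 0.489), and it was higher there than after 6 h at 40 °C by 0.89 (adjusted p = 0.000534).

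Nfe2l2, Keap1 and Bach1 moved by less than 1.5-fold in every comparison. Nfe2l2, the gene of NRF2, had a mean of 217 ± 16.9 CPM in the controls (SD, n = 3) and rose after 6 h at 40 °C to 264 ± 18.2 CPM (SD, n = 4), by 0.29 on the log2 scale (adjusted p = 0.00201). At 42.5 °C it was at 193 ± 16.1 CPM (SD, n = 4), lower than after 1 h at 40 °C by 0.3 (adjusted p = 0.000961), and its difference from 37 °C was -0.15 (adjusted p = 0.0618). That last difference passed the test without 37 °C replicate A (-0.21, adjusted p = 0.0191), without 42.5 °C replicate D (-0.21, adjusted p = 0.00332) and with no filter (adjusted p = 0.0137), so its side of the threshold depended on the setting. After 6 h against 1 h at 40 °C Nfe2l2 differed by 0.15 (adjusted p = 0.0764), and by 0.19 (adjusted p = 0.0141) without 6 h replicate A. Keap1, its inhibitor, fell at 42.5 °C by 0.28 (adjusted p = 0.000802) and differed by 0.07 and 0.06 after 1 h and 6 h at 40 °C. Bach1, a repressor at the same elements, fell at 42.5 °C by 0.22 (adjusted p = 0.0117) and after 1 h at 40 °C by 0.28 (adjusted p = 0.0371), and differed by -0.14 after 6 h (adjusted p = 0.0768). Without 37 °C replicate B the adjusted p of Bach1 at 42.5 °C was 0.0859, and with all 4 controls it was 0.677, while that of Nfe2l2 after 6 h at 40 °C was 0.0687.

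Between heated groups, 4 of the 91 other genes were DEGs at 42.5 °C against 40 °C for 1 h, all higher: Chac1 (2.03), Nfe2l3 (1.69), Slc30a1 (1.09) and Sesn2 (0.59). This is 4.4% of the list beside 5.27% of all genes. At 40 °C, 6 h differed from 1 h in 2 genes, Maff (-0.75) and Slc7a11 (-0.68), which is 2.2% of the list beside 1.28% of all genes. The adjusted p of Slc7a11 was 0.0561 without 40 °C 1 h replicate C and 0.0588 without 6 h replicate C. At 42.5 °C against 40 °C for 6 h 8 genes were higher and 1 lower, 9.89% of the list beside 8.25% of all genes. The 8 were Chac1 (2.12), Nfe2l3 (1.96), Slc30a1 (1.55), Maff (0.96), Slc7a11 (0.89), Sesn2 (0.78), Txnip (0.61) and Mafk (0.59, a 1.5-fold difference, at the threshold), and the 1 was Slc40a1 (-0.67). All these values are log2 differences. Nfe2l3 was tested only in comparisons that included 42.5 °C, its highest group, and the shares of the list in those comparisons include it. Sesn2 at 42.5 °C against 40 °C for 1 h came under 1.5-fold without 40 °C 1 h D, 42.5 °C C or 42.5 °C D (0.49 to 0.55), Txnip without 40 °C 6 h B, 42.5 °C B or 42.5 °C D (0.49 to 0.55), and Mafk without 40 °C 6 h B or C or 42.5 °C A, B or D (0.55 to 0.58).

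**Figure D4:**
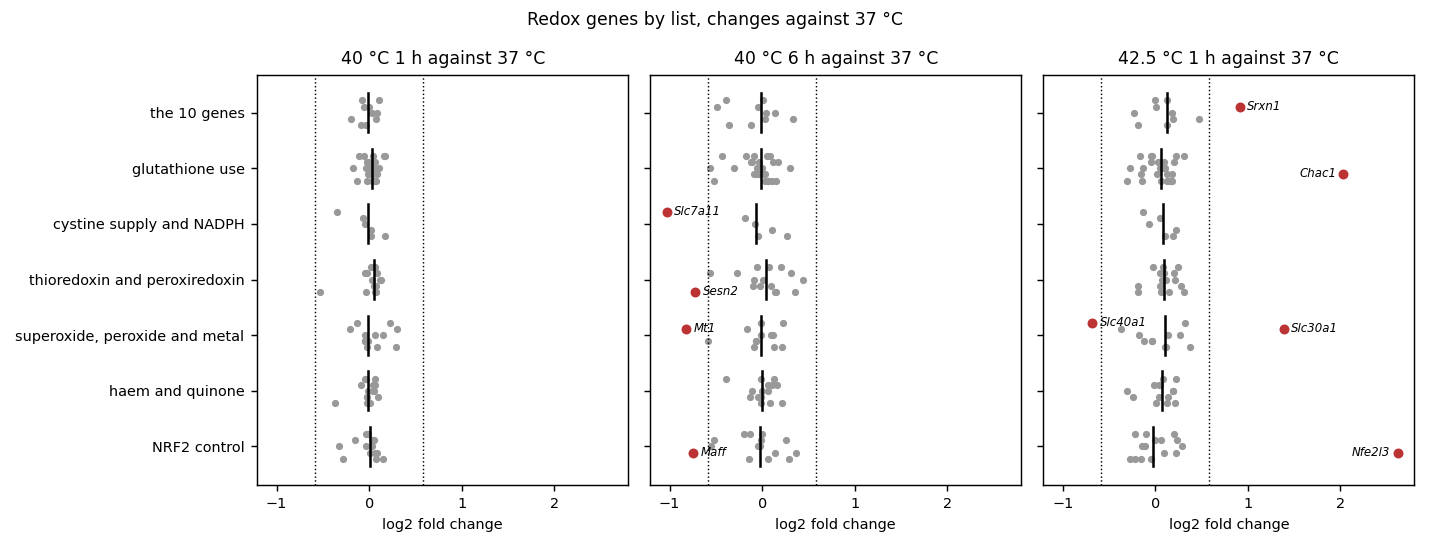
Log2 fold change against 37 °C of the 10 genes and of the other redox genes tested, by list, for each heat treatment, with 1 dot per gene, red and named for DEGs, a black line at each list's median and dotted lines at 1.5-fold. After 1 h at 40 °C no dot is red, after 6 h 4 red dots lie to the left, and at 42.5 °C Srxn1, Chac1, Slc30a1 and Nfe2l3 lie to the right and Slc40a1 to the left.

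For the 2 members that were DEGs in any comparison, Srxn1 and Osgin1, the genes with the most similar pattern were taken by Pearson's r of log2 CPM over the 15 libraries, among 10626 genes. Nearest to Srxn1 were Chac1 (r = 0.982), Snx11, a sorting nexin (r = 0.979), and Nfkbiz, a nuclear regulator of NF-κB (r = 0.978). At 42.5 °C Chac1 was at 23.7, 41.1, 26.5 and 57.7 CPM in replicates A to D, Snx11 at 35.5, 54.5, 34.1 and 60.6 CPM, and Nfkbiz at 13.9, 20.9, 14.3 and 28.5 CPM. Replicate D was the highest and B the next for all 3, as for Srxn1 itself. This follows in part from the choice of these genes by r with Srxn1 over the same libraries. Nearest to Osgin1 were Yae1d1 (r = 0.887), Saraf (r = 0.876) and Ascc3 (r = 0.874), whose log2 differences at 42.5 °C from 37 °C were 0.27, 0.4 and 0.24, beside 0.47 for Osgin1. Ascc3 went from 133 ± 1.05 CPM (SD, n = 3) at 37 °C to 156 ± 6.83 CPM (SD, n = 4) at 42.5 °C. The points share libraries and treatment groups, so r is given as a description.

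**Figure D5:**
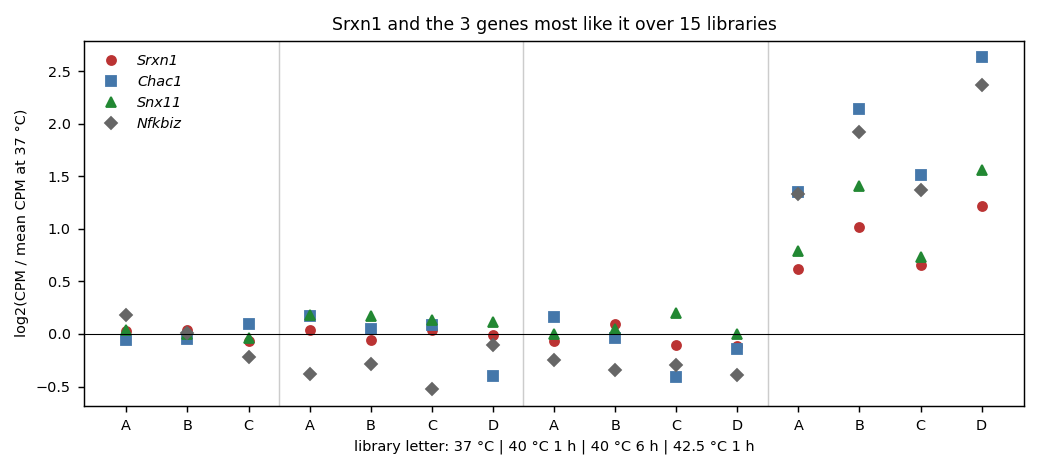
Log2 of CPM over the mean of the 3 controls for Srxn1 and the 3 genes most like it, in each of the 15 libraries by group and letter. At 42.5 °C Srxn1 lies at 0.62, 1.02, 0.66 and 1.21 in replicates A to D. Chac1, Snx11 and Nfkbiz, picked by r with Srxn1 over these same libraries, are also highest in D and next in B.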

How the data were processed

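RNA of CHO cells was isolated with a NucleoSpin kit, made into libraries with a TruSeq RNA kit and read as paired ends on a NextSeq. Per the study's methods, CLC Genomics Workbench was used to map and count the reads, on the Chinese hamster genome CHOK1GS_HDv1. The submitters' processing notes also name bcl2fastq. The deposited values are the authors' raw read counts per gene and library, without normalization. Annotation release, strand setting and the handling of reads with several places are not given in the sources used here.

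Each of the 6 comparisons was fitted to the whole table of counts with the quasi-likelihood test of edgeR 4.0.16 (R 4.3.3). Only the libraries of both groups compared entered a fit, after filterByExpr at default settings and TMM scaling. Adjusted p-values are Benjamini-Hochberg over all genes tested. DEGs needed an adjusted p under 0.05 together with at least a 1.5-fold change. Of the controls, 37 °C replicates A, B and C were used, since their counts are those the study lists for its DEGs and those of D are not. CPM were scaled by TMM over the 16 libraries, and correlations used log2 CPM with a prior count of 2. Intervals are 95% intervals of the fitted log2 fold change.

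The 10 members and the other gene lists were chosen with earlier results of these data known. Genes named are the 10 members, Nfe2l2, Keap1 and Bach1, every other listed gene that was a DEG in any comparison, and the 3 genes most correlated with each member that was a DEG. Settings were changed one at a time: DESeq2 1.42.0 for size factors or for its Wald test, no filter or at least 10 counts in every library, a joint fit of the 4 groups, the replicate letter in the model, the call by adjusted p alone or by glmTreat against 1.5-fold, all 4 controls, and each library left out in turn. The RefSeq annotation of CriGri-PICRH-1.0, another build, served only to find genes that overlap the members. Promoter and protein sequences were not used here.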

Additional observations from a re-analysis of the deposited data

Results flagged for a closer look

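Over the 10 genes and 4 groups, 40 sets of 4 libraries were examined for a library far from the other 3 by the ratio of its gap to the whole range (Dixon's test at the 95% level), which chance gives in about 1 of 20 sets. There were 5 such libraries. Prdx1 in 37 °C replicate D, the control left out of the fits, was at 364 CPM against 202 to 227 CPM (ratio 0.847). Osgin1 in 40 °C 6 h replicate C was at 6.78 CPM against 8.46 to 8.75 CPM (ratio 0.85). Gss in 40 °C 1 h replicate A was at 209.8 CPM against 199 to 201 CPM (ratio 0.843). Gsr in 42.5 °C replicate C was at 38.2 CPM against 35.3 to 35.7 CPM (ratio 0.866). Srxn1 in 37 °C replicate C was at 187 CPM against 200.5 to 202 CPM (ratio 0.873).

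Of 30 tests of a member between heated groups, 12 passed an adjusted p of 0.05 by edgeR, 3, 4 and 5 of 10 in the 3 comparisons below, where 36.1%, 18.5% and 47% of all genes did. For 42.5 °C against 40 °C at 1 h the log2 differences were 0.91 for Srxn1, 0.67 for Osgin1 and -0.25 for Gsr. For 6 h against 1 h at 40 °C they were 0.53 for Osgin1, -0.43 for Gss, -0.31 for Txnrd1 and -0.27 for Gclc. For 42.5 °C at 1 h against 40 °C at 6 h they were 0.95 for Srxn1, 0.4997 for Gss, 0.38 for Txnrd1, 0.17 for Gclc and -0.27 for Gsr.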

How the results depend on the processing

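Srxn1 at 42.5 °C was a DEG under all 15 alternatives in each of the 3 comparisons with that group. DESeq2's size factors, no filter and a filter of 10 counts left each of the 60 member values on its side of the threshold, and DESeq2's Wald test left 59, with Txnrd1 at 42.5 °C against 40 °C for 1 h now passing (adjusted p = 0.0477). With adjusted p alone as the call, 3 members passed at 40 °C for 6 h (0 DEGs), 6 at 42.5 °C (1), 4 for 6 h against 1 h at 40 °C (0) and 5 for 42.5 °C against 40 °C for 6 h (1). With glmTreat, which tests for a change beyond 1.5-fold, 0 members passed at 40 °C for 6 h (3 otherwise), 1 at 42.5 °C (6), 1 at 42.5 °C against 40 °C for 1 h (3, or 2 DEGs), 0 for 6 h against 1 h at 40 °C (4) and 1 for 42.5 °C against 40 °C for 6 h (5). Over all genes, glmTreat passed 31, 262, 171, 8 and 260 in these comparisons. With all 4 controls 2 members passed at 42.5 °C in place of 6, as 1895 of all genes did in place of 4510, and Prdx1 turned to -0.0457 on the log2 scale. Leaving out 1 library gave 1 to 2 DEGs for 42.5 °C against 40 °C for 1 h (1 without 42.5 °C replicate D) and 0 to 1 for 6 h against 1 h at 40 °C (1 without 40 °C 6 h replicate C). In 1 fit over all 4 groups, Gclm and Prdx1 at 42.5 °C no longer passed (adjusted p = 0.0525 and 0.0598). The cause of these changes was not tested.

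The letters A to D were not taken to pair the libraries, since the labels do not say what they share and in no comparison were all same-letter correlations of deviations over 0.1. Their means were between 0.014 and 0.134 over the 6 comparisons. Deviations from a group mean cancel within the group, so the means of different letters (-0.045 to -0.0049) follow from these and are no separate observation. With the replicate letter as a block, 1 member passed at 40 °C for 1 h in place of 0 (Txnrd1, log2 -0.08, adjusted p = 0.0457), Gclc at 42.5 °C against 40 °C for 1 h and Nqo1 at 42.5 °C against 40 °C for 6 h also passed (adjusted p = 0.043 and 0.0356), and no call of a member was lost. Nfe2l2 passed with the block at 40 °C for 1 h (adjusted p = 0.00694), at 42.5 °C (-0.21, adjusted p = 0.000212) and for 6 h against 1 h at 40 °C (adjusted p = 0.0144). Over all genes the block moved the number with adjusted p under 0.05 from 172 to 634 at 40 °C for 1 h. Depth limits Osgin1 most, with 64 to 140 counts per library used.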

Other observations

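Within groups, replicate D was the highest library for Nqo1 in all 4 groups, at 28.7, 21.8, 21.7 and 22.8 CPM, which was the case for 3.26% of 10579 genes. It was the highest in 3 of 4 groups for Gclm, Prdx1, Hmox1 and Osgin1 and in 0 of 4 for Gclc and Gsr. At 42.5 °C it was the highest for 5 of the 10 genes, where 29.9% of genes had it highest.

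In 37 °C replicate D, which entered the fits only as an alternative, Prdx1 was higher than the mean of the other 3 controls by 0.78 on the log2 scale, Osgin1 by 0.63, Nqo1 by 0.61 and Hmox1 by 0.37. Gclc and Txnrd1 were lower there, by -0.03 and -0.09. Srxn1, the gene that rose at 42.5 °C, was at 202 CPM in that library beside 187 to 202 CPM in the others.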
